A study of Rattus norvegicus with 19 samples.

Results

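Contraction of a heart muscle cell starts when calcium enters through the L-type channel and opens the ryanodine receptor of the sarcoplasmic reticulum, the internal calcium store. Relaxation follows when the calcium pump of the store takes calcium back up and the sodium-calcium exchanger moves the rest out of the cell. The genes examined here encode the main parts of this cycle, whose impairment is a textbook feature of the hypertrophied and failing heart. They are Cacna1c, Cacna2d1 and Cacnb2 (subunits of the L-type channel), Ryr2 (the ryanodine receptor), Casq2 (the calcium-binding protein of the store), Atp2a2 (the store's pump, SERCA2), Pln and Sln (small proteins that restrain the pump), Slc8a1 (the exchanger) and Camk2d (the kinase that phosphorylates several of these proteins). All probe sets annotated to 1 of these 10 symbols were taken, which gave 24 of the 31099 probe sets on the array.

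Left ventricular RNA from Dahl salt-sensitive males (Harlan SS/Hsd), rats that become hypertensive on salt, was measured on 19 Affymetrix arrays. All animals ate 6% NaCl from 6 weeks of age, so all groups share this diet, which the submitters used to cause hypertrophy by pressure overload, and no rats on normal salt are analysed here. The baseline group (4 arrays) was untreated and taken at 11 weeks of age, after 5 weeks of salt. The other groups were taken at 15 weeks, after 4 further weeks of salt with treatment. They received vehicle injections (4 arrays), paricalcitol, a vitamin D receptor activator, at 200 ng by intraperitoneal injection 3 times a week (4 arrays), enalapril, an inhibitor of angiotensin-converting enzyme, at 90 ug a day from an osmotic pump with vehicle injections (3 arrays), or both drugs (4 arrays, called the combination). The enalapril dose was chosen by the authors as one that did not lower blood pressure significantly. Vehicle and baseline differ in age, time on salt and injections together. The drug groups differ from baseline in these as well as in the drugs, so those comparisons do not show a drug alone. The labels give no link between animals of different groups. The labels do not say whether each array holds RNA of a separate rat, and if some do not, the p-values measure only the spread between these samples.

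Levels are log2 of the quantile-normalized intensity plus 16, so that a value of 4 is the floor at which a probe set gave no positive signal. A difference is the first group minus the second on this scale, with limma's standard error (SE), and understates changes of faint probe sets. A probe set passed when its limma p, adjusted by Benjamini-Hochberg over all 20826 probe sets that name 1 gene, was under 0.05. Array medians of the deposited intensity ran from 43.6 to 72.6. Of 9 cardiomyocyte markers 8 were measured, and their mean level was between 13.50 and 13.86 on every array. Several are among the brightest probe sets, such as Tnnt2 and Myh7 (ranks 4 to 13 and 6 to 25), where quantile normalization leaves little room to differ. Single markers were less even than the mean, since Myh6 ran from 2255.53 to 14912.96 in deposited intensity. The signal of a probe set depends on its probes as well as on its transcript, so levels are compared between samples and not between genes. In RNA from whole tissue, fewer cells of a type and less RNA per cell cannot be told apart.

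Cacna2d1, which encodes the alpha2delta-1 subunit that helps bring the L-type channel to the cell surface, was the one member that passed the test over the 5 groups. Its level on every array of drug-treated rats was below that on every vehicle and baseline array. Between pairs of groups the fall passed for the combination against baseline, which differ in age and time on salt as well as in the drugs. Against vehicle, the group of the same age, it did not pass for any drug group. The rest of the cycle, from the ryanodine receptor to the pump and the exchanger, gave no difference past the threshold in any of the 10 comparisons. Sln was below 0 in deposited intensity on every array.

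A promoter window of Cacna2d1 is shown because this gene carries the difference, and that of Pln, which has 2 probe sets among the brightest on every array, is shown beside it. RefSeq gave windows of 300 bases (250 before and 50 after a start) on the assembly GRCr8 for 9 of the 10 genes. Capitals mark GGGCGG, the core of a GC box, on either strand. The windows are Cacna2d1 at chr4:20330098-20330397, minus strand, and Pln at chr20:33172244-33172543, plus strand.
Cacna2d1: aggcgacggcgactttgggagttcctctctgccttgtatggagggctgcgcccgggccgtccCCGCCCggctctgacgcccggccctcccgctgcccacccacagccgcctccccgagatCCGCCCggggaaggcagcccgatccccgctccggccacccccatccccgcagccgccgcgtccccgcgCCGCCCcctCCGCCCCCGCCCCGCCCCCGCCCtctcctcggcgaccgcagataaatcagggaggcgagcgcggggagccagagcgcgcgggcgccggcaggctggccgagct
Pln: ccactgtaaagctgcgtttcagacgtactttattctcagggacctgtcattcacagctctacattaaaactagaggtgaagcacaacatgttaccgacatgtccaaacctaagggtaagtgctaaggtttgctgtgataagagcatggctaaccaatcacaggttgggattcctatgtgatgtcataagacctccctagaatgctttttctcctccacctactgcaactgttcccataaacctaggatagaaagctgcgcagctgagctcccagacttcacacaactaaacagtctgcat
The Cacna2d1 window is 78.3% G and C and holds 7 matches to GGGCGG, some of them overlapping. RefSeq gives Cacna2d1 2 further starts nearby, whose windows are 73% and 75.7% G and C and hold 3 matches each; the one printed is the farthest upstream. The Pln window is 45% G and C and holds none. Among 33469 promoter windows of the same length the median was 51.7%, and 33.1% held at least 1 match. AGGTCA and GGTTCA, hexamers of nuclear receptor sites, are in neither window, and 16.2% and 11.7% of all windows hold them. A match is a description of letters, and the absence of one concerns these windows alone.

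In the baseline group the Cacna2d1 levels were 8.43, 8.67, 8.52 and 8.90, and in the vehicle group 8.39, 8.62, 8.52 and 8.23. With paricalcitol they were 8.10, 8.19, 8.05 and 7.74, with enalapril 7.79, 7.89 and 7.80, and with the combination 7.87, 7.79, 8.15 and 7.58. All 11 arrays of drug-treated rats lay below all 4 vehicle and all 4 baseline arrays, whereas vehicle and baseline overlapped. Of all probe sets tested, 0.0576% showed this order. The gap was narrow, 0.04 between the lowest vehicle array and the highest drug array. The group means were 8.63 ± 0.20 (SD, n = 4) at baseline, 8.44 ± 0.17 (n = 4) with vehicle, 8.02 ± 0.20 (n = 4) with paricalcitol, 7.85 ± 0.24 (n = 4) with the combination and 7.83 ± 0.06 (n = 3) with enalapril. In that order, neighbouring means differed by no more than about the spread within groups except vehicle and paricalcitol, whose arrays did not overlap. In the deposited intensities the drug arrays were again the lowest, but there the vehicle arrays (270.18 to 354.17) also lay below the baseline arrays (365.07 to 497.2), with means of 421.6 and 306.8 in the baseline and vehicle groups and of 228.2, 226 and 206.8 with paricalcitol, enalapril and the combination.

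**Figure D1:**
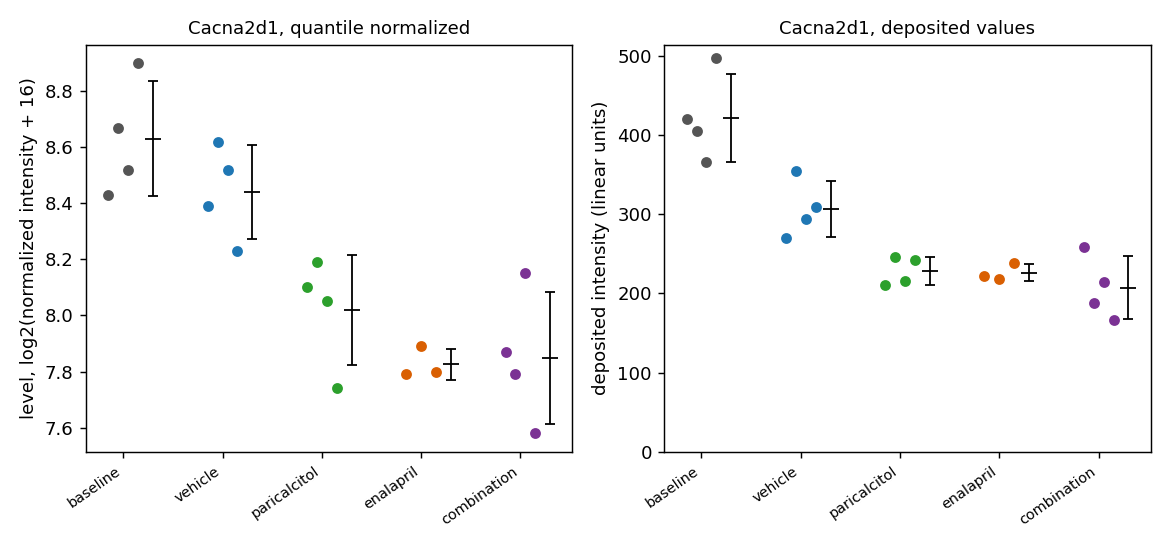
Cacna2d1 in each array of the 5 groups, as the quantile-normalized level on the log2 scale (left) and as the deposited linear intensity (right). Points are arrays and the bar beside them is the mean with its SD; on the left all 11 drug arrays, between 7.58 and 8.19, lie below the vehicle arrays, between 8.23 and 8.62.

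Over the 5 groups together Cacna2d1 passed limma's F test (F = 14.6, adjusted p = 0.0443). It was the 1 member of 24 that did, where 0.106% of all probe sets passed. That call was lost in 16 of the 19 fits that left out 1 array, with adjusted p between 0.0344 and 0.136 over the 19; it was kept without paricalcitol replicate 2, paricalcitol replicate 4 or combination replicate 3. It was also lost with the replicate number as a block (adjusted p = 0.0758). Between pairs of groups, Cacna2d1 fell in the combination against baseline by 0.78 (SE 0.13, 95% interval -1.06 to -0.50), to 0.581 of the baseline level, with limma's adjusted p = 0.0346. In this comparison 0.221% of all probe sets passed. The call was lost without baseline replicate 2 (adjusted p = 0.0843), baseline replicate 4 (0.0731), combination replicate 2 (0.114) or combination replicate 4 (0.0745), in limma fits. It was also lost when the 2 groups were fitted alone (limma's adjusted p = 0.194).

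The other comparisons of Cacna2d1 did not pass. Against baseline the difference was -0.80 (SE 0.14) with enalapril and -0.61 (SE 0.13) with paricalcitol, at limma's adjusted p of 0.0751 and 0.175. Against vehicle it was -0.42 (SE 0.13) with paricalcitol, -0.61 (SE 0.14) with enalapril and -0.60 (SE 0.13) with the combination, with limma's adjusted p of 0.314, 0.556 and 0.227. These differences share their control arrays and so do not support each other independently. Vehicle against baseline gave -0.19 (SE 0.13, 95% interval -0.47 to 0.09). Adding the second drug gave 0.02 against enalapril (95% interval -0.28 to 0.32) and -0.17 against paricalcitol (-0.45 to 0.11; -0.27 to -0.08 when single arrays were left out). The interaction of the drugs, which is the combination's difference from enalapril minus paricalcitol's difference from vehicle, was 0.44 (SE 0.19, limma's adjusted p = 0.725).

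Markers of other cells also varied between these groups. The mean level of 6 fibroblast markers, all measured and none at the floor, was 11.60 to 11.90 at baseline and 10.59 to 11.67 in the combination. That of 6 smooth muscle and pericyte markers, likewise all measured, was 8.28 to 8.77 at baseline and 8.08 to 8.37 in the combination. With vehicle the fibroblast markers were at 11.12 to 11.49, also below baseline, and with paricalcitol the smooth muscle markers were at 8.49 to 8.80. The part of these markers in the Cacna2d1 difference was not tested. Single fibroblast markers were uneven over the arrays. In deposited intensity Postn ran from 134.22 to 4664.12 and Dcn from 7006.24 to 10849.26, so the mean need not be a shift shared by all 6. With a red cell marker score as a covariate the combination minus baseline difference was -0.81 (limma's adjusted p = 0.0243).

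A single probe set on the array (1369649_at) carries the Cacna2d1 symbol, so its result rests on that probe set alone and no comparison between probe sets of the gene was made. Among 10412 probe sets of other genes with a level above the median, those whose pattern over the 19 arrays was most like that of Cacna2d1 were of Hip1 (r = 0.922), Eif2ak1 (r = 0.893) and Jade1 (r = 0.87). Their Spearman coefficients were 0.912, 0.849 and 0.845. Once group means were removed, the correlations were 0.634, 0.42 and 0.601. These 3 genes were picked for the likeness, which is therefore a description. Hip1, which encodes an adaptor of clathrin-mediated uptake, had means of 9.55 and 9.38 in the baseline and vehicle groups and of 9.05, 8.98 and 8.85 with paricalcitol, enalapril and the combination. Eif2ak1, the heme-regulated kinase of translation initiation, went from 8.77 and 8.74 to 7.97, 7.79 and 7.83 in the same order.

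For the other L-type channel subunits no comparison passed. Cacna1c, the pore-forming subunit, had levels on its brighter probe set (1370452_at) of 9.14, 9.20, 8.76 and 8.89 at baseline and 9.48, 9.25, 9.33 and 9.14 with vehicle. With paricalcitol they were 9.46, 9.56, 9.25 and 8.74, with enalapril 9.35, 9.22 and 9.08, and with the combination 9.15, 9.30, 9.21 and 9.17. Every pair of these groups overlapped, and paricalcitol replicate 4 was the lowest of all arrays. The difference of vehicle from baseline was 0.30 (SE 0.15, limma's adjusted p = 0.601), and the second probe set gave 0.27 (SE 0.21). For Cacnb2, the beta2 subunit that assists channel trafficking and gating, the group means of the brightest probe set stayed between 9.93 and 10.02, and those of the other 2 between 7.61 and 8.14. None of the 5 probe sets of these 2 genes passed in any comparison.

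**Figure D2:**
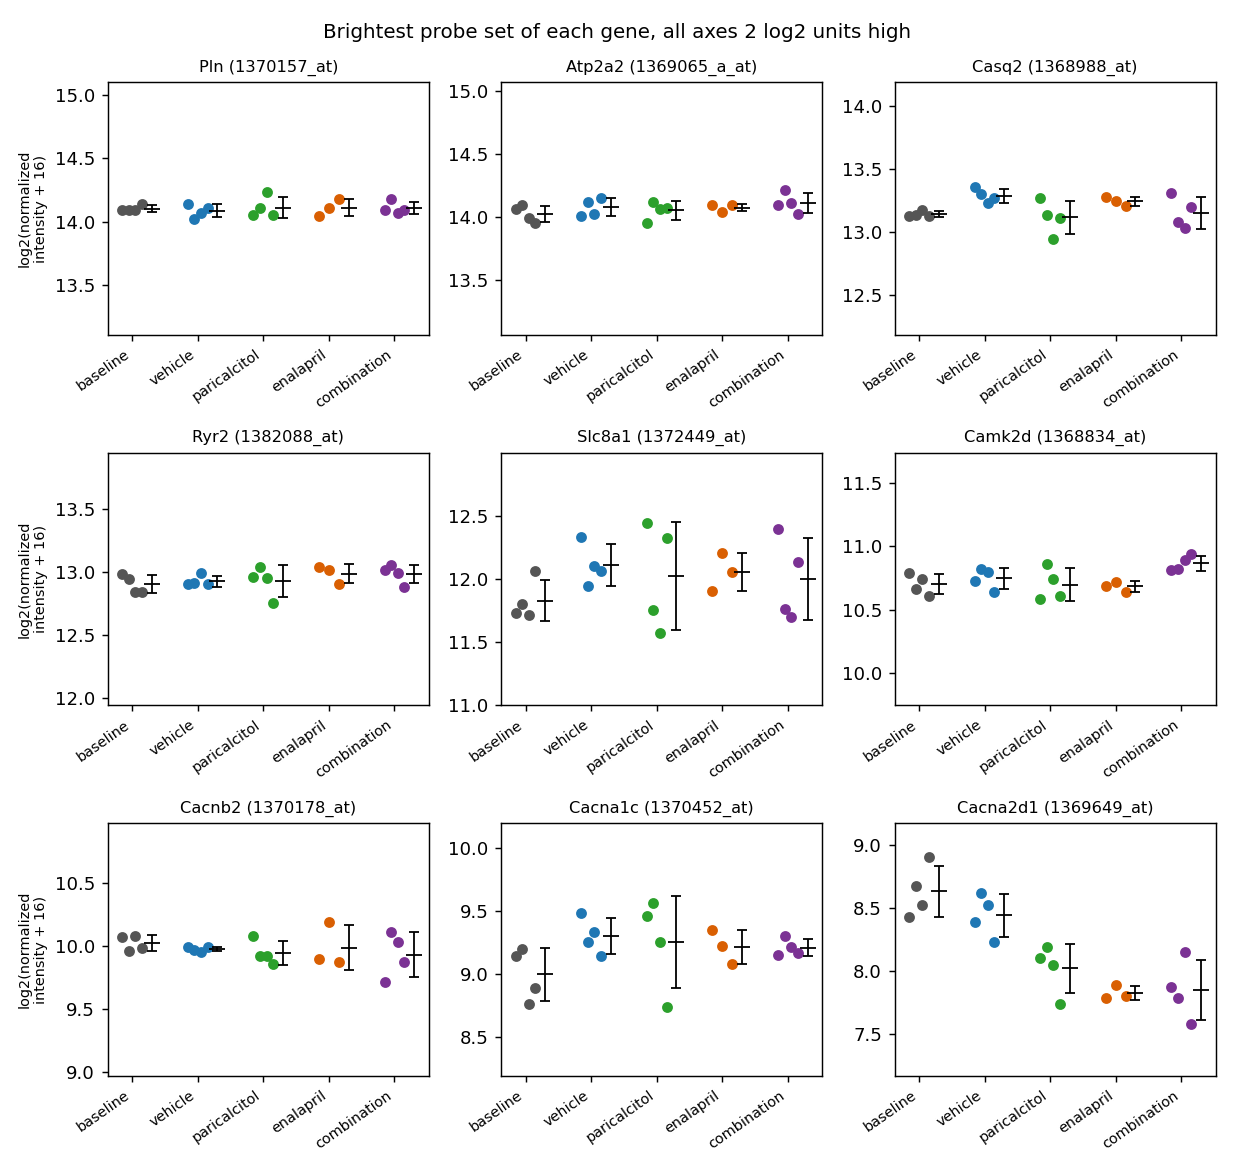
Level of the brightest probe set of each of 9 genes in every array, by group; the vertical axes differ in position but all span 2 log2 units, points are arrays and the bars show mean and SD. Cacna2d1 (bottom right) is the panel in which all drug arrays lie below the other groups, Slc8a1 shows wide scatter within the paricalcitol and combination groups, and Sln, at the floor throughout, is not drawn.

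In the release machinery, Ryr2 varied little on its brighter probe set (1382088_at), from 12.75 to 13.05 over all arrays. Vehicle minus baseline was 0.02 (95% interval -0.11 to 0.15) and combination minus vehicle 0.06 (-0.07 to 0.19). The second Ryr2 probe set (1382775_at) read 11.08, 11.24, 11.24 and 10.93 with vehicle and 10.47, 10.90, 10.82 and 10.66 with the combination. These groups did not overlap, but the difference of -0.41 (SE 0.24) did not pass (limma's adjusted p = 0.767) and the brighter probe set differed the other way.

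Casq2, which buffers calcium beside the ryanodine receptor, read 13.13, 13.14, 13.18 and 13.13 at baseline and 13.36, 13.30, 13.23 and 13.27 with vehicle on its brighter probe set (1368988_at). With paricalcitol it read 13.27, 13.14, 12.95 and 13.11, with enalapril 13.28, 13.25 and 13.21, and with the combination 13.31, 13.08, 13.03 and 13.20. All vehicle arrays were above all baseline arrays, and paricalcitol overlapped both. In the deposited values vehicle and baseline overlapped, with a difference of 0.05. They stayed apart with median centring (0.31) and with cyclic loess (0.14). With quantile normalization, Casq2 was the 1 member of 24 whose vehicle and baseline groups did not overlap, where 6.87% of all probe sets were apart in this way. With median centring more members were apart, among them the second Casq2 probe set (0.28) and the brighter ones of Slc8a1 (0.39) and Cacna1c (0.33). Sln was apart there too (0.25), though it is at the floor on every array, so its value is the offset that centring adds. The other median-centred values of this comparison, also the 0.31 above, hold the same offset. The quantile-normalized Casq2 difference of 0.14 (SE 0.07) did not pass (limma's adjusted p = 0.59), nor did paricalcitol minus vehicle, at -0.17 (SE 0.07, limma's adjusted p = 0.435). The second Casq2 probe set (1387401_at) had means of 12.72 at baseline, 12.88 with vehicle and 12.72 with paricalcitol.

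In the uptake machinery, Atp2a2 and Pln stood at the top of the array, with ranks 8 to 27 and 7 to 22 of 31042 for their brightest probe sets. Quantile normalization leaves such probe sets little room to differ. The Atp2a2 group means on that probe set (1369065_a_at) lay between 14.02 and 14.11, and their deposited means, before normalization, between 16590 and 17450. The Pln group means (1370157_at) lay between 14.09 and 14.11. A fainter Pln probe set (1384689_at) had room to vary and read 10.08, 9.73, 9.67 and 9.98 at baseline, 9.98, 9.71, 9.98 and 9.82 with vehicle and 9.62, 9.52, 9.62 and 9.09 with paricalcitol. With enalapril it read 9.93, 10.42 and 10.06, and with the combination 9.21, 10.52, 10.12 and 9.91. All paricalcitol arrays lay below the vehicle and baseline arrays, while the combination spanned nearly the whole range. Neither paricalcitol minus vehicle, at -0.41 (SE 0.22, limma's adjusted p = 0.612), nor combination minus paricalcitol, at 0.48 (SE 0.22, limma's adjusted p = 0.541), passed. The latter was 0.29 without combination replicate 2 and 0.73 without combination replicate 1.

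A faint Atp2a2 probe set (1391771_at) read 6.87, 6.89 and 6.88 with enalapril and 6.78, 6.53, 6.05 and 6.12 with the combination. These groups were apart, also with median centring and cyclic loess, though not in the deposited values. Their difference of -0.51 (SE 0.21) did not pass (limma's adjusted p = 0.911), and the brighter Atp2a2 probe sets showed no such split. The group means were 6.85 at baseline, 6.53 with vehicle and 6.52 with paricalcitol, beside 6.88 with enalapril and 6.37 with the combination. The combination overlapped vehicle (-0.16, SE 0.2). Enalapril lay above all vehicle arrays (0.35, SE 0.21), which did not pass either. Sln, the pump's inhibitor best known from atria and skeletal muscle, had deposited intensities between -105.63 and -22.69 over the 19 arrays. No difference can be measured for it here. Of the 5 atrial markers measured, Kcnj5 and Myl4 had mean levels of 8.22 and 7.87, whereas Myl7 and Mybphl were faint, at 5.92 and 4.92. The 6 skeletal muscle markers were uneven. Myh1 was bright, at 12.77, whereas Myh2 and Tnnt3 were faint, at 5.76 and 4.70. Actn3 and Myh4 were near the floor, at 4.30 and 4.24, and Tnni2 was below 0 on all 19 arrays.

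Slc8a1 read 11.73, 11.80, 11.71 and 12.06 at baseline and 12.33, 11.94, 12.10 and 12.06 with vehicle on its brighter probe set (1372449_at). With paricalcitol it read 12.44, 11.75, 11.57 and 12.32, with enalapril 11.90, 12.20 and 12.05, and with the combination 12.39, 11.76, 11.70 and 12.13. The paricalcitol and combination groups each split into a high and a low pair of arrays, so their spread (SD 0.43 and 0.33) exceeded that at baseline (SD 0.16). Vehicle minus baseline was 0.29 (SE 0.19, limma's adjusted p = 0.726), and no comparison passed.

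Camk2d, on its brightest probe set (1368834_at), read 10.81, 10.82, 10.89 and 10.94 with the combination and 10.69, 10.72 and 10.64 with enalapril. At baseline it read 10.79, 10.66, 10.74 and 10.61, with vehicle 10.73, 10.82, 10.80 and 10.64, and with paricalcitol 10.58, 10.86, 10.74 and 10.61. The combination was above all enalapril and all baseline arrays and overlapped the others, but in the deposited values it overlapped these as well, with differences of 0.02 from each. It stayed above enalapril and baseline with median centring (0.14 and 0.20) and with cyclic loess (0.17 from each). With quantile normalization its difference was 0.18 (SE 0.06) from enalapril, 0.17 (SE 0.06) from paricalcitol and 0.16 (SE 0.06) from baseline, with limma's adjusted p of 0.911, 0.415 and 0.331. A second probe set (1371263_a_at) gave 0.26 (SE 0.10) against paricalcitol and 0.22 (SE 0.10) against baseline, also short of the threshold.

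**Figure D3:**
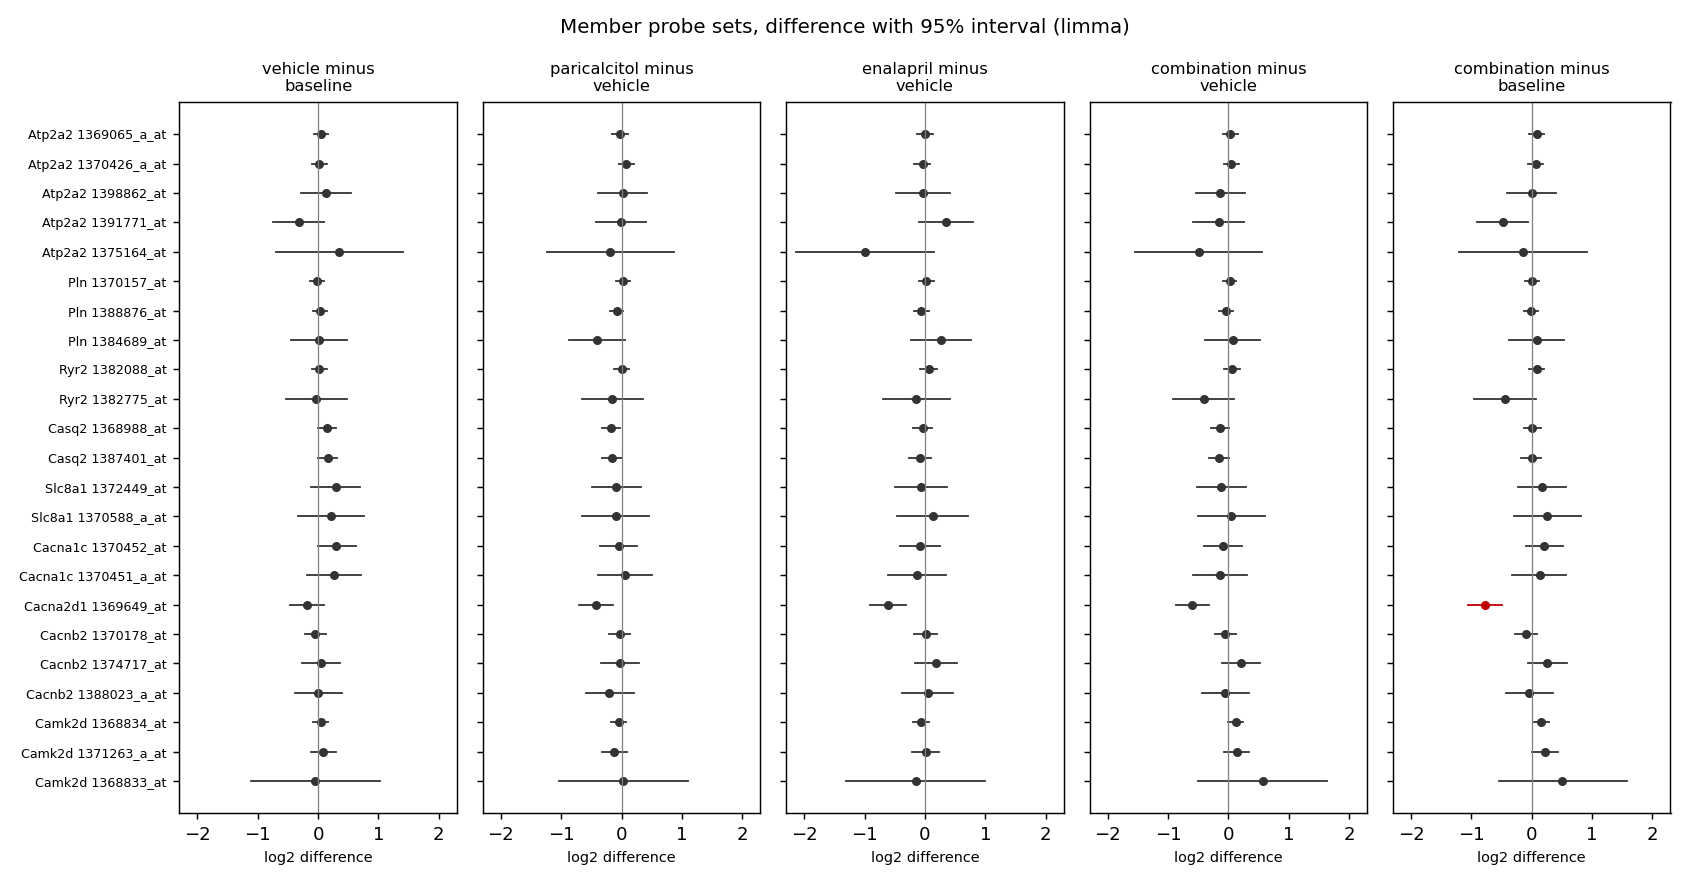
Difference in log2 level of 23 member probe sets (Sln, at the floor, is left out) in 5 of the comparisons, with 95% intervals from limma. The 1 value past the threshold, Cacna2d1 in combination minus baseline (-0.78), is in red; most other intervals cross 0, and the widest belong to faint probe sets of Atp2a2 and Camk2d.

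Counted over the 24 probe sets, 17 were higher and 6 lower in vehicle than at baseline, with a median difference of 0.04, where the median over all probe sets was 0. In the deposited values 7 were higher and 16 lower (median -0.09, against -0.19 over all probe sets). Median centring gave 22 and 2, with Sln, at the floor, among the 22 (0.25). Cyclic loess gave 17 and 7. Counted against the median of all probe sets, 17 lay above and 6 below with quantile normalization. That count was 19 and 5 in the deposited values, 19 and 5 with median centring, and 16 and 8 with cyclic loess. Sln is among the 19 in both the deposited and the median-centred values. In this comparison none of the 24 passed, as against 0.0576% of all probe sets. With paricalcitol 6 were higher and 17 lower than with vehicle (median -0.05), with enalapril 10 and 13 (-0.04), and with the combination 10 and 13 (-0.04). For enalapril the deposited values turned this to 19 and 4 (median 0.10, against 0.16 over all). None passed there, beside backgrounds of 0.0192%, 0% and 0.0096%. None passed for paricalcitol or enalapril against baseline, with 0.0336% and 0.0384% of all probe sets called. The interaction, and the combination set against either single drug, had a background of 0% and no member called. At an unadjusted p under 0.05 in limma's F test there were 2 of 24 members (8.33%), against 10% of all probe sets.

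Groups that did not overlap were found for 2 member probe sets each in paricalcitol, enalapril and combination against vehicle, where 4.69%, 7.97% and 3.97% of all probe sets were apart. Against baseline there were also 2 for each drug group, beside 3.75% for paricalcitol, 8.36% for enalapril and 5.47% for the combination. Cacna2d1 is in each of these 6 counts. The combination against enalapril gave 2, Camk2d and Atp2a2, beside 4.87%, and against paricalcitol 0, beside 3.16%.

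Probe sets of the same gene followed each other to different degrees. Over the 19 arrays, the 2 probe sets of Casq2 correlated at r = 0.842 (rho = 0.832), those of Slc8a1 at r = 0.777 (rho = 0.804) and those of Cacna1c at r = 0.784 (rho = 0.793). These were the 3 of 17 pairs whose permutation p, adjusted over the 17, was under 0.05 (adjusted p = 0.00034 for each r). Without the 2 most extreme arrays r was 0.778, 0.859 and 0.639, and within groups 0.779, 0.786 and 0.764. For Ryr2 r was 0.466 (rho = 0.389, adjusted permutation p = 0.128), for the 6 Atp2a2 pairs -0.219 to 0.465, and for the 3 Cacnb2 pairs -0.0965 to 0.232.

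The arrays differed in red cell markers, and several members varied with them. The score is the mean log2 deviation of 4 measured markers of 9 listed, and it ran from -0.86 to 0.87 in the paricalcitol group and from -0.75 to 0.72 in the combination. Of 21 member probe sets above a level of 6, 6 correlated with it by Pearson's r at an adjusted permutation p under 0.05, 2 of them positively. By Spearman's rho 3 of the 6 passed. The second Slc8a1 probe set (adjusted permutation p = 0.123) and 2 of Atp2a2 (0.224 and 0.054) did not. How many of all probe sets vary with the score was not computed, so these counts are not shown to be particular to the members. Slc8a1 (1372449_at) rose with the score (r = 0.681, rho = 0.607, permutation p = 0.00126 and 0.0065, adjusted over 21 to 0.00959 and 0.0455). Without the 2 most extreme arrays r was 0.563, and within groups it was 0.819. Pln (1388876_at) fell with it (r = -0.688, rho = -0.701, permutation p = 0.00078 and 0.00123, adjusted to 0.00959 and 0.014), with r = -0.573 without the extremes and -0.796 within groups. This bright probe set (ranks 32 to 54) spanned only 13.62 to 13.88, and the correlations used quantile-normalized levels alone. In deposited intensity Pln read 14377.83 in combination replicate 1 (score 0.72) and 13547.27 in replicate 2 (-0.75). In paricalcitol replicates 4 (0.87) and 3 (-0.86) it read 13821.98 and 14333.48, the other order. The fainter Cacna1c probe set (1370451_a_at) gave r = -0.686 and rho = -0.70 (adjusted permutation p = 0.00959 and 0.014), with r = -0.536 without the extremes. Cacna2d1 gave r = -0.057 (rho = -0.0947, permutation p = 0.818), and r = -0.392 within groups. The part of blood content in the Slc8a1 and Pln levels was not tested.

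**Figure D4:**
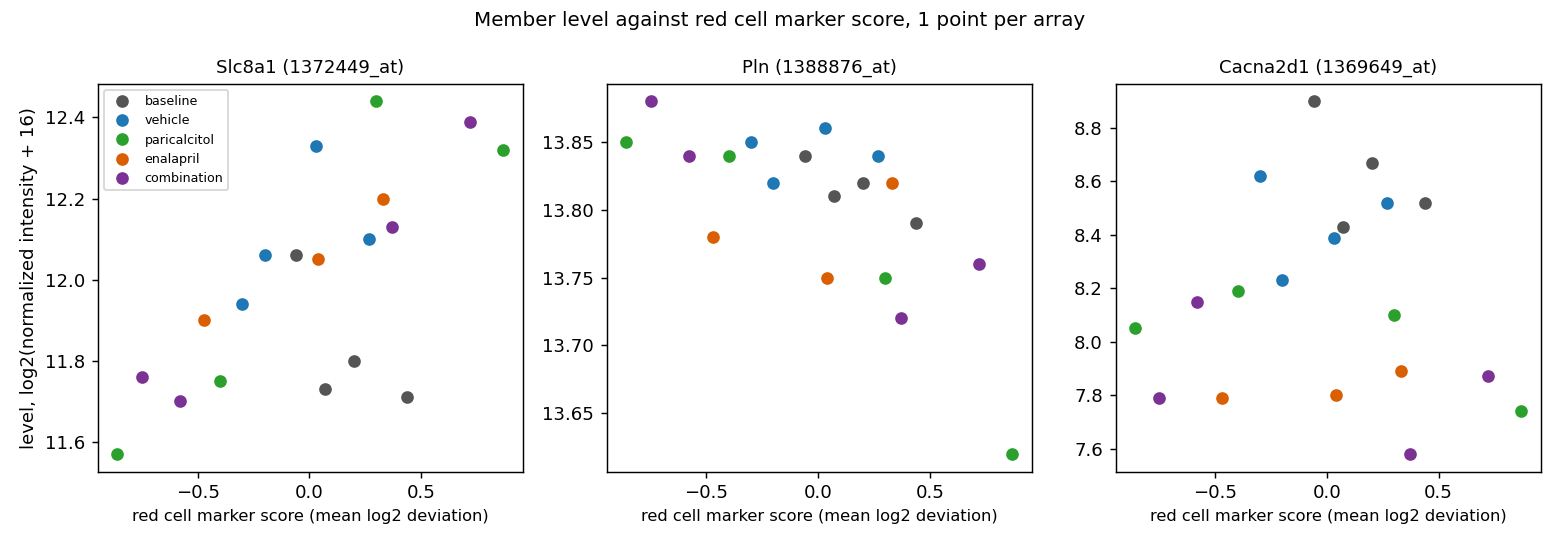
Level of Slc8a1, Pln and Cacna2d1 probe sets (vertical axes, log2 scale) against the red cell marker score (horizontal axis, mean log2 deviation), 1 point per array, coloured by group. After quantile normalization Slc8a1 is higher and Pln lower on arrays with a high score (r = 0.681 and -0.688). The Pln levels span only 13.62 to 13.88. The pooled r of Cacna2d1 is -0.057 and that within groups -0.392.

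Among 36 pairs of member genes, each taken by its brightest probe set, Ryr2 and Cacna1c correlated at r = 0.731 (rho = 0.617) and Casq2 and Slc8a1 at r = 0.676 (rho = 0.636). The permutation p adjusted over the 36 was 0.0148 and 0.0292 for r, but 0.107 for both rho. Within groups r was 0.831 and 0.74, and without the 2 most extreme arrays 0.517 and 0.534.

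Other genes of calcium handling were taken from a list of 67, of which 62 were measured by 108 probe sets. None passed in any of the 10 comparisons or in limma's F test, where 8 had an unadjusted p under 0.05. In vehicle against baseline 56 were higher and 48 lower (median 0.01). The smallest p-values there were those of Atp2b1, the calcium pump of the cell membrane, at -0.49 (SE 0.13, limma's adjusted p = 0.212), of Sri (sorcin, which binds the ryanodine receptor) at -0.24 (SE 0.07, limma's adjusted p = 0.291), and of Prkaca, the catalytic subunit of protein kinase A, at 0.34 (SE 0.11, limma's adjusted p = 0.297). A second Sri probe set gave -0.23 (SE 0.08). The other 2 Atp2b1 probe sets gave -0.26 (SE 0.13) and -0.19 (SE 0.38), and their groups overlapped. Vehicle and baseline did not overlap for 10 of the 108 probe sets (9.26%), near the 6.87% of all probe sets.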

How the data were processed

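Expression was measured in 19 left ventricle samples, grouped by the labels. The deposited intensity values are linear, 1 per probe set and array, with 16% to 18.2% below 0; the authors' background correction and scaling: not given in the sources used here. Control probe sets (57) were removed, the arrays were quantile normalized, negative values were raised to 0, and 16 was added before taking log2. Of 31099 probe sets, 20826 named 1 gene and 436 named several; 9780 without a gene in the annotation were not tested. Each probe set was fitted singly with limma 3.58.1 (R 4.3.3) in a model of 5 group means, with empirical Bayes moderation and a trend, and adjusted by Benjamini-Hochberg over all. Correlations used 100000 permutations, two-sided. The procedure was tested on simulated data. The members, gene lists and markers were chosen with earlier results of these data known; the correlations between members and with red cell markers were added after the group comparisons. Named genes are all members, the other calcium handling genes with the smallest p in vehicle against baseline, and the 3 genes most like Cacna2d1. Alternatives were other normalizations, pseudocounts, filters, array weights, a replicate block, a red cell covariate and leaving out each array. The number of arrays limits the precision. The labels do not pair same-numbered samples.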

Additional observations from a re-analysis of the deposited data

Results flagged for a closer look

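Of 92 group-wise sets of member values tested for a lone extreme array, 6 held one; chance gives about 1 in 20. Pln (1370157_at) was 14.14 in baseline replicate 4, where the others were at 14.09, and 14.18 in combination replicate 2, where the others were between 14.07 and 14.09. Combination replicate 1 stood apart for 3 probe sets. It read 9.04 for Slc8a1 (1370588_a_at) against 7.81 to 8.01, 8.61 for Camk2d (1371263_a_at) against 8.31 to 8.35, and 4 for Atp2a2 (1375164_at), the floor, against 5.53 to 5.81. This array had a red cell score of 0.72. Ryr2 (1382088_at) was 12.99 in vehicle replicate 3, with the others at 12.90 to 12.91.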

How the results depend on the processing

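Outcomes were recomputed under 11 alternatives and with each of the 19 arrays left out in turn. The count of members past the threshold stayed at 0 throughout for the interaction, for vehicle against baseline, for all 3 drug groups against vehicle, and for the combination against either single drug. The 1 call over the 5 groups became 0 with the replicate number as a block (Cacna2d1, limma's adjusted p = 0.0758), and it was 0 to 1 over the omissions. The 1 call in combination against baseline became 0 when the 2 groups were fitted alone, and 0 to 1 over the omissions; the replicate block kept it (limma's adjusted p = 0.0465). For enalapril against baseline the count of 0 became 1, Cacna2d1, with deposited values, with bright probe sets alone, with array weights and with the red cell covariate. For paricalcitol against baseline it became 1 with deposited values (Cacna2d1 at -0.84). Without equalisation the median of all probe sets moved by up to -0.19 (vehicle minus baseline), and Cacna2d1 there was -0.44. Cacna2d1 in combination minus enalapril reversed to -0.14 with deposited values and to -0.02 with median centring, and it ran from -0.08 to 0.11 over the omissions. The count of other calcium handling genes became 1 with array weights (Vdac1, enalapril against baseline). The gap between vehicle and drug arrays, added after seeing the data, was 0.04 to 0.20. In combination against baseline 46 probe sets passed in all, 15 higher and 31 lower, against 0 and 8 with deposited values, and 117 with array weights. Every pair of same-numbered samples correlated over 0.1 in 1 of 10 pairs of groups (paricalcitol and combination, 0.27 to 0.49), and the block left the count of members there at 0. The cause of these changes was not tested. The comparison between Cacna2d1 probe sets was not run, since 1 carries the symbol.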
